A study of Mus musculus with 4 samples.

Results

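The platelet-derived growth factor (PDGF) family was followed through the cells of the embryonic mouse lung. Its members were taken by symbol: the ligands Pdgfa, Pdgfb, Pdgfc and Pdgfd, the receptors Pdgfra and Pdgfrb, and the receptor-like gene Pdgfrl, which makes 7 of the 20674 genes listed. All 7 were found in each library. The E17.5 group was 3 wild-type lungs (lung 1, lung 2 and lung 3), each measured by single-cell RNA sequencing of live cells after lysis of red cells. The E16.5 group was 1 lung carrying αSMA-GFP, Tbx4-Cre and Rosa26-tdTomato, from which cells were sorted for green fluorescence driven by the smooth muscle actin gene and for tdTomato left on in descendants of cells in which the Tbx4 promoter had driven Cre. Both were of strain C57BL/6. The sort was therefore gated for cells of this lineage that carry the actin reporter, while the E17.5 lungs were not selected for either. It still held 38 epithelial and 20 endothelial cells, and no reporter was among the genes listed, so its purity was not checked. Stage, gate and library cannot be told apart.

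PDGF ligands are secreted as dimers and act on a pair of receptor tyrosine kinases. In mouse tissues PDGF-A and PDGF-C act mainly through PDGFRα, PDGF-B and PDGF-D mainly through PDGFRβ. PDGF-A and PDGF-B are cut inside the cell by proprotein convertases, whereas PDGF-C and PDGF-D leave the cell latent and are opened by proteases outside it. In the lung, PDGF-A from the epithelium is needed for the alveolar myofibroblasts that carry PDGFRα, and in many organs PDGF-B from the endothelium recruits the pericytes that carry PDGFRβ. Pdgfrl encodes a protein that resembles the outer part of the receptors and lacks a kinase.

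Promoter windows from RefSeq (GRCm38.p6, 250 bases before to 50 after the start, 300 in all) were at hand for 4 of the 7 members, and 3 are shown here: the main epithelial ligand, the arterial ligand, and the receptor that divides the fibroblasts. Of the build behind the deposited values nothing was stated in the labels. Capitals mark a GC box (GGGCGG or CCGCCC) or a TATA box (TATAAA or TTTATA), searched on both strands. The Pdgfa window lies on the minus strand at chr5:138994895-138995194, the Pdgfd window on the plus strand at chr9:6168236-6168535, and the Pdgfra window on the plus strand at chr5:75152001-75152300.
Pdgfa: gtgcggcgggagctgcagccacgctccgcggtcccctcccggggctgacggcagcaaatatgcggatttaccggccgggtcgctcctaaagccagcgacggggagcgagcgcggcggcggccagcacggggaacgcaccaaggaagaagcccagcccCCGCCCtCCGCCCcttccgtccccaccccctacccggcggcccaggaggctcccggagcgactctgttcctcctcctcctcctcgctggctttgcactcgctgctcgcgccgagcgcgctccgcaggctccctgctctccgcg
Pdgfd: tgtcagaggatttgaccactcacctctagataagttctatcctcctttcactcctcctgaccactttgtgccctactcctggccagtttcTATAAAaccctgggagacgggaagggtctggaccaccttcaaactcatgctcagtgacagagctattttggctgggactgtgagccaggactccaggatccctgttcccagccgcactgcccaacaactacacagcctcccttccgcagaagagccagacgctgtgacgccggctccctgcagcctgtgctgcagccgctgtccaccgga
Pdgfra: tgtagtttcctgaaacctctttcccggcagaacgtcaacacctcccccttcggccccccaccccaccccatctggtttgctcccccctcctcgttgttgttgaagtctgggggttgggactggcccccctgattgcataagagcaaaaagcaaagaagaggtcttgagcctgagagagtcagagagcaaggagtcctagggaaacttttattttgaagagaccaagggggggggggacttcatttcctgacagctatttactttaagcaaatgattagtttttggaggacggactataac
The Pdgfa window was 73.3% G and C with 37 CpG dinucleotides and 2 GC boxes, and the window of its other start (chr5:138994232-138994531) was 67.0% G and C with 24 CpG and 1 GC box. The Pdgfd window was 56.7% G and C with 8 CpG and 1 TATA box, which starts 160 bases before the start site. The Pdgfra window was 51.0% G and C with 5 CpG and held neither motif. The Pdgfc window (chr3:81036166-81036465, plus strand) was 55% G and C with 8 CpG and held neither. Of all 32851 windows 35.7% held the GC box and 13.6% the TATA box, with a median of 52.7% G and C and 7 CpG. These matches describe letters and not binding. Windows of Pdgfb, Pdgfrb and Pdgfrl are not used here.

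The lungs held 2140 to 2682 cells each (20347458 to 23996253 UMIs, unique molecular identifiers that count captured molecules) and the sort 3085 cells (41038008 UMIs). The median cell carried 7201 to 8493.5 UMIs in the lungs and 12007 in the sort. Levels are given as CPM, the UMIs of a gene per 1000000 UMIs of a cell, averaged over the cells of a class in one library. Cells were clustered without the PDGF members and without every other gene tested here, and named from markers. The E17.5 lungs gave 1863 epithelial, 1370 endothelial, 1939 mesenchymal and 2179 immune cells. The mesenchyme was read as 199 pericyte-like cells (12 of 13 markers at least 2-fold above other classes), 85 smooth muscle-like cells (6 of 9), 119 cells led by the angiotensin receptor gene Agtr2, 468 contractile cells (8 of 9 myofibroblast markers) and 1068 matrix fibroblast-like cells (9 of 9). The Agtr2 cells had 8 of 9 adventitial fibroblast markers above other classes, and 1 listed at 0. In the sort, 2990 of the cells were mesenchymal: 1065 pericyte-like, 129 smooth muscle-like, 232 Agtr2 cells, 1209 contractile and 355 matrix fibroblast-like. Its classes had 10 of 13 pericyte, 6 of 9 smooth muscle, 8 of 9 myofibroblast and 9 of 9 matrix markers above other classes. The sorted Agtr2 cells had 6 of 9 adventitial fibroblast markers above other classes, and 1 listed at 0. Acta2, the actin gene behind the reporter, stood at 1233 ± 166 CPM in the mesenchyme of the lungs and at 3137 CPM in that of the sort, and Tbx4 at 44.7 ± 5.31 and 44.6 CPM (SD, n = 3 lungs). The stress-induced gene Atf3 stood at 387 ± 28.3 CPM in the mesenchyme of the lungs and at 11.2 CPM in that of the sort, and Fosb at 792 ± 71.8 and 25.3 CPM. Markers of immune cells summed to 139 to 273 CPM in the mesenchymal classes of the lungs and to 1.31 to 15.8 CPM in those of the sort, against 7052 CPM in the immune cells themselves. Epithelial markers summed to 77.3 to 196 CPM in those classes of the lungs and to 3.26 to 11.2 CPM in the sort, against 3491 CPM in the epithelium of the lungs. Endothelial markers summed to 71.0 to 260 CPM and 23.2 to 148 CPM, against 7012 CPM in the endothelium. The part of such stray RNA in low values was not tested. No 2 libraries shared more than 13 cell barcodes.

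The first question was which cells send PDGF. In the E17.5 lung the ligands differed in their main compartment. Pdgfa was highest in the epithelium, and Pdgfb and Pdgfd were both highest in the endothelium. Pdgfc was low everywhere, with its highest compartment level in the epithelium. Pdgfa stood at 181, 190.2 and 185 CPM in the epithelium of lungs 1, 2 and 3, at 36.1, 36.8 and 41.1 CPM in the mesenchyme, at 4.56, 3.56 and 7.62 CPM in the endothelium and at 6.58, 4.58 and 5.73 CPM in immune cells. The epithelium of each lung exceeded the other compartments without overlap. It was higher in the epithelium than in the mean of the other compartments by a log2 difference of 3.12 ± 0.0694, adjusted p = 5.0e-22 (limma on log2 of CPM plus 10 with the lung as a block, Benjamini-Hochberg adjustment over 5056 genes; SE). Epithelial cells made up 25.1% of cells and held 82.7 ± 0.234% of all Pdgfa UMIs (SD, n = 3).

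Pdgfb, the ligand of endothelial cells in many organs, stood at 78.6, 77.8 and 75.8 CPM in the endothelium of lungs 1, 2 and 3, and at 4.59, 4.06 and 3.59 CPM in the epithelium, 2.58, 4.97 and 5.13 CPM in immune cells and 0.669, 2.17 and 1.35 CPM in the mesenchyme. The endothelial values sat within 3 CPM of each other, and every other compartment of each lung lay under 6 CPM. The endothelium was higher than the mean of the other compartments by 2.73 ± 0.0706, adjusted p = 8.7e-21, and it held 81.0 ± 3.64% of Pdgfb UMIs with 18.9% of cells. Pdgfd, the latent ligand of PDGFRβ, followed at a lower level, with 30.0, 27.0 and 34.4 CPM in the endothelium of the lungs, 1.09, 0.390 and 2.62 CPM in the mesenchyme and at most 0.522 CPM in the epithelium and immune cells of any lung. Its endothelial log2 difference was 1.93 ± 0.0636, adjusted p = 1.2e-18, and the endothelium held 89.5 ± 4.07% of its UMIs.

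Pdgfc, the latent ligand of PDGFRα, was the lowest of the ligands in its highest compartment. It stood at 9.04, 10.3 and 5.31 CPM in the epithelium of lungs 1, 2 and 3 and at 1.56, 2.98 and 4.81 CPM in the mesenchyme. Its mean over all compartments was under 5 CPM, so it was not tested between them, and 6 of the 7 members were. The epithelium held 71.4 ± 9.38% of Pdgfc UMIs and the mesenchyme 16.8 ± 8.11%.

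**Figure D1:**
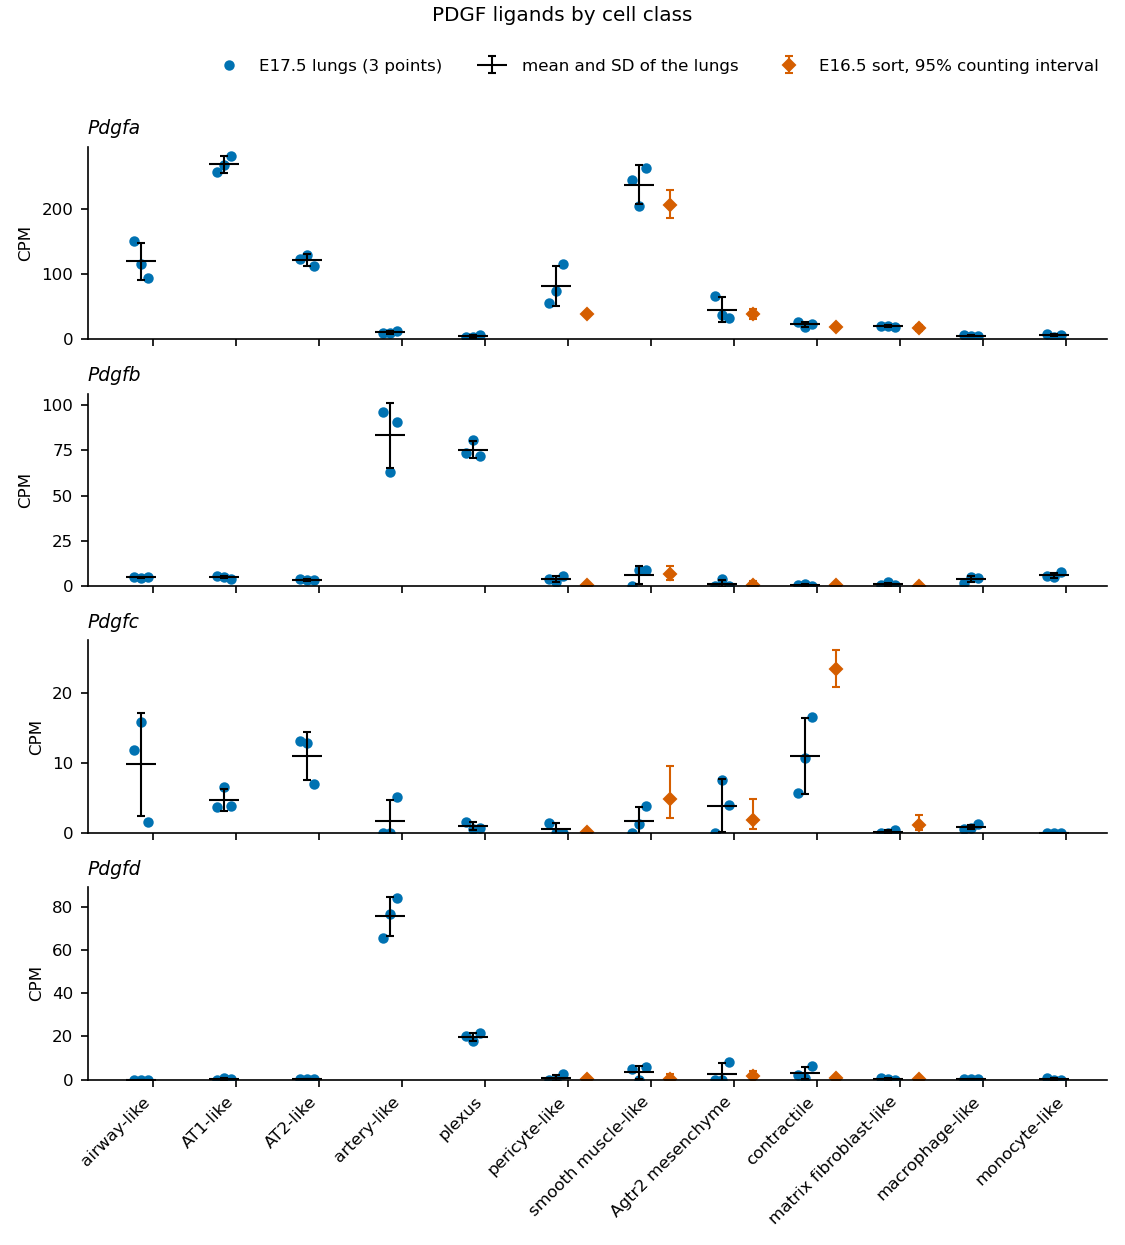
Levels of Pdgfa, Pdgfb, Pdgfc and Pdgfd in cell classes of the E17.5 lung and the E16.5 sort. Points are the mean CPM of 1 class in 1 lung on a linear axis with its own scale per gene, black lines and bars the mean and SD of the 3 lungs, and diamonds the mesenchymal classes of the sort with their 95% counting interval; the class marked plexus is that of the other endothelial cells. Pdgfa is high in alveolar type 1 cells (269 ± 12.5 CPM) and in smooth muscle-like cells (238 ± 29.5 CPM), and Pdgfb in both endothelial classes.

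Within the epithelium Pdgfa was highest in alveolar type 1-like cells, the flat cells of gas exchange. It stood at 150.4, 116 and 93.5 CPM in airway-like cells of lungs 1, 2 and 3, at 257, 267 and 282 CPM in alveolar type 1-like cells and at 123, 130.0 and 113 CPM in alveolar type 2-like cells, which make surfactant. Type 1-like cells of every lung lay above all values of the other classes, while airway and type 2-like cells overlapped. Pdgfa was higher in type 1-like than in type 2-like cells (log2 difference 1.08 ± 0.136, adjusted p = 2.3e-04, limma with Benjamini-Hochberg adjustment) and lower in airway-like than in type 1-like cells (−1.12 ± 0.136, adjusted p = 1.0e-04), each in 3 of 3 lungs. Airway-like against type 2-like cells gave −0.04 ± 0.136, adjusted p = 0.86. In these 3 comparisons 12.9% (type 1 against type 2), 33.1% (airway against type 1) and 28.2% (airway against type 2) of 4847 genes were called, beside 1, 1 and 0 of 2 members tested. Neither member had an unadjusted p under 0.05 in limma between airway-like and type 2-like cells, while edgeR's quasi-likelihood test on recovered UMIs called Pdgfa there (log2 difference −0.39, adjusted p = 0.049) and DESeq2 called neither.

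Alveolar cells were not uniform for Pdgfa. Among type 1-like clusters it averaged 371 ± 15.2 CPM in the 253 cells led by Aqp5 and Ager, genes of flattened type 1 cells, 234 ± 14.7 CPM in the 523 cells led by Sprr1a and Cldn18, and 97.2 ± 27.8 CPM in 34 cells led by Rab25. Among type 2-like clusters it averaged 69.3 ± 10.1 CPM in the 422 cells led by Lyz1 and Retnla, 156 ± 10.2 CPM in the 412 cells led by Mia and Sftpc, and 183 ± 6.95 CPM in 108 cells led by the division gene Ccnb1. These cluster levels are a description and were not tested. Type 1-like cells held 44.6 ± 4.12% and type 2-like cells 34.5 ± 4.20% of all Pdgfa UMIs of the lungs.

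Pdgfc stood at 11.95, 15.9 and 1.54 CPM in airway-like cells of lungs 1, 2 and 3, 3.69, 6.57 and 3.89 CPM in type 1-like cells and 13.1, 12.8 and 7.004 CPM in type 2-like cells. Type 2-like cells exceeded type 1-like cells in each lung, and airway-like cells spread over the range of both. None of the 3 comparisons passed the test: type 1-like against type 2-like cells gave a log2 difference of −0.50 ± 0.2198, adjusted p = 0.21 (limma, Benjamini-Hochberg). In edgeR's quasi-likelihood test on recovered UMIs the same comparison gave −1.13 with an adjusted p of 0.0050.

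The endothelial ligands divided within the endothelium. Pdgfb stood at 96.4, 62.9 and 90.8 CPM in artery-like cells of lungs 1, 2 and 3 and at 73.8, 80.5 and 71.9 CPM in the other endothelial cells. The ranges overlapped, and the log2 difference of artery-like against other endothelial cells was 0.11 ± 0.140, adjusted p = 0.68 (limma, Benjamini-Hochberg). Pdgfd stood at 65.9, 77.0 and 84.2 CPM in artery-like cells and 20.3, 17.9 and 21.4 CPM in the others, without overlap, and was higher in artery-like cells by 1.52 ± 0.167, adjusted p = 7.0e-12, in 3 of 3 lungs. The artery-like class had 8 of 8 artery markers above other classes. The other endothelial cells had 4 of 6 capillary plexus markers, and the lymphatic genes Lyve1 and Ccl21a stood among their leading genes. Pdgfa was low in both, at 10.3 ± 1.99 CPM in artery-like and 4.06 ± 2.00 CPM in the other endothelial cells, with a log2 difference of 0.54 ± 0.206, adjusted p = 0.059. It was called with 5 of the alternatives, edgeR among them. In this comparison 17.8% of 4718 genes were called, beside 1 of 3 members tested.

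Artery-like cells made up 3.52% of the cells of the lungs and held 40.5 ± 1.57% of Pdgfd UMIs but 15.2 ± 4.45% of Pdgfb UMIs. The other endothelial cells, 15.3% of cells, held 48.9 ± 5.43% of Pdgfd and 65.8 ± 7.14% of Pdgfb UMIs. Between their clusters Pdgfb averaged 99.8 ± 7.35 CPM in 294 cells with the division gene Rrm2 among their leading genes and 66.7 ± 5.64 CPM in 816 cells led by Aplnr, and Pdgfd 21.8 ± 5.48 and 19.1 ± 3.83 CPM. The size of the artery-like class depended on the processing: it held 97, 75 and 88 cells in lungs 1, 2 and 3, and 44, 33 and 33 with doublets kept, so its shares of cells and UMIs hold for the class as defined here. With doublets kept Pdgfd was called as higher in artery-like cells as well.

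In immune cells the ligands were low. Pdgfa, the highest member among them, stood at 5.55, 4.63 and 5.197 CPM in macrophage-like cells of lungs 1, 2 and 3 and at 8.32, 3.94 and 6.48 CPM in monocyte-like cells, with a log2 difference of −0.09 ± 0.136, adjusted p = 0.62 (limma, Benjamini-Hochberg). It was the only member tested in that comparison, where 36.5% of 4158 genes were called. The unadjusted p was 0.49 in limma, and edgeR and DESeq2 on recovered UMIs did not call it either.

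The second question was which cells receive PDGF. Both receptors were genes of the mesenchyme. Pdgfra stood at 151, 117 and 119.8 CPM in the mesenchyme of lungs 1, 2 and 3, and at 1.99, 3.13 and 3.91 CPM in the epithelium, 2.79, 2.02 and 3.43 CPM in the endothelium and 2.03, 1.72 and 1.91 CPM in immune cells. Pdgfrb stood at 63.9, 110.5 and 79.4 CPM in the mesenchyme, 1.95, 1.91 and 0.755 CPM in the epithelium, 0.867, 1.78 and 0.644 CPM in the endothelium and 1.10, 0.643 and 2.05 CPM in immune cells. Outside the mesenchyme neither receptor reached 4 CPM in a compartment of any lung. The mesenchyme exceeded the mean of the other compartments by 3.47 ± 0.0762, adjusted p = 4.4e-22 for Pdgfra and by 3.04 ± 0.0896, adjusted p = 1.2e-19 for Pdgfrb (limma, Benjamini-Hochberg, 3 of 3 lungs).

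Pdgfrl was also highest in the mesenchyme, with 28.2, 29.8 and 35.5 CPM in lungs 1, 2 and 3 and a log2 difference of 1.88 ± 0.0648, adjusted p = 2.5e-18 (limma). Pdgfa was weakly higher there than in the mean of the other compartments (0.42 ± 0.0694, adjusted p = 8.7e-06), a mean that takes in the low values of the endothelium and immune cells. Of the 6 members tested, 4 were higher and 2 lower in the mesenchyme, 1 higher and 5 lower in the epithelium, 2 higher and 4 lower in the endothelium, and 6 lower in immune cells. Most genes were called in these comparisons: 75.0% of 5056 genes for the mesenchyme, 74.0% for the epithelium, 77.0% for the endothelium and 84.9% for immune cells. All 6 members tested were called in each, against that background. The median log2 difference of all genes was −0.26 for immune cells and 0.12 for the endothelium. With median-of-ratios scaling these medians were −0.02 and −0.06, and no member value between compartments changed its direction or its call. In edgeR on recovered UMIs the lower values of Pdgfrl in the epithelium (adjusted p = 0.55) and of Pdgfd in the mesenchyme (adjusted p = 0.42) were not called, nor were they in DESeq2.

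**Figure D2:**
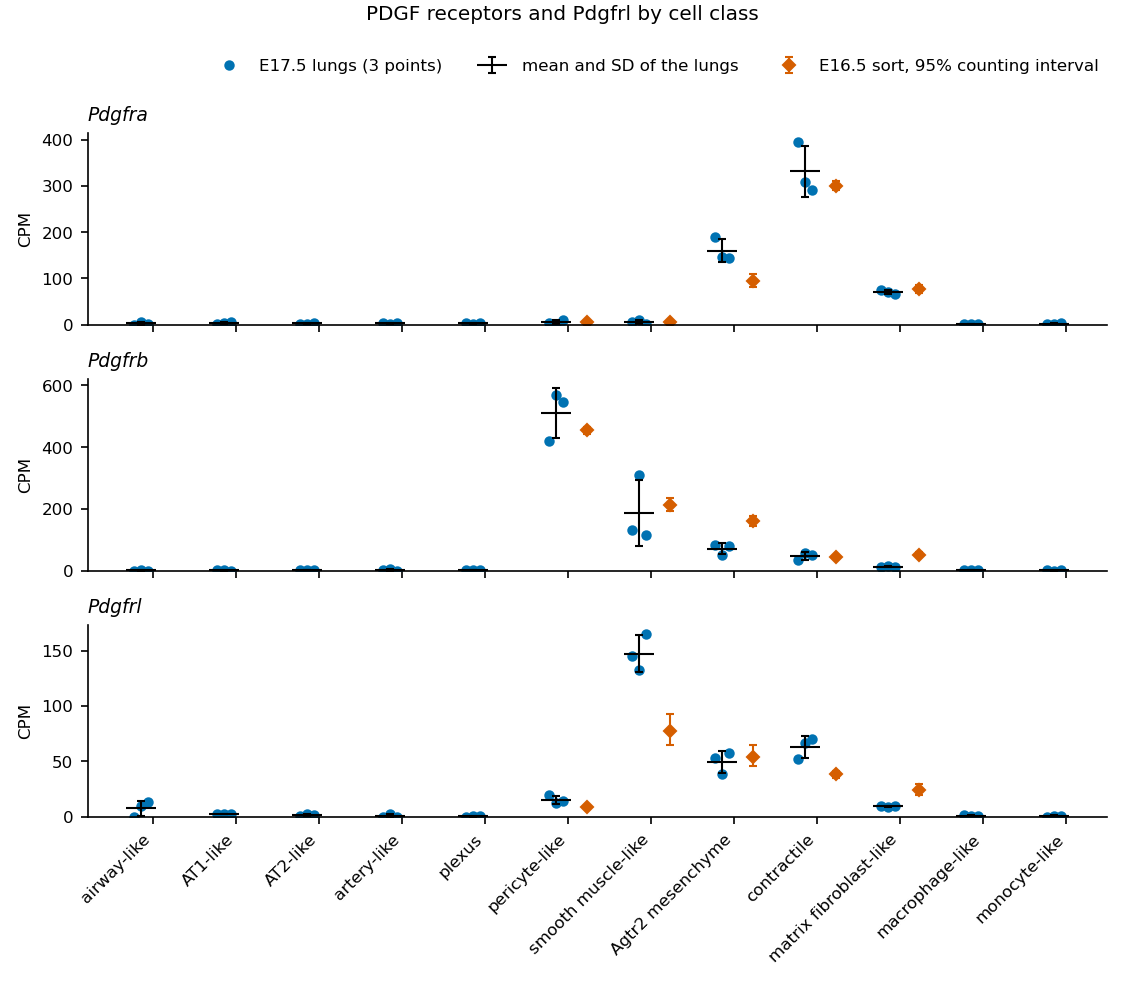
Levels of Pdgfra, Pdgfrb and Pdgfrl in cell classes of the E17.5 lung and the E16.5 sort. Points are the mean CPM of 1 class in 1 lung on a linear axis with its own scale per gene, black lines and bars the mean and SD of the 3 lungs, and diamonds the mesenchymal classes of the sort with their 95% counting interval. Pdgfra peaks in contractile cells (332 ± 54.8 CPM in the lungs), Pdgfrb in pericyte-like cells (511 ± 80.0 CPM) and Pdgfrl in smooth muscle-like cells (147 ± 16.45 CPM).

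Within the E17.5 mesenchyme the receptors peaked in different classes. Pdgfra stood at 4.31, 0.874 and 10.2 CPM in pericyte-like cells of lungs 1, 2 and 3, at 5.45, 10.996 and 2.18 CPM in smooth muscle-like cells, at 189, 147 and 144 CPM in Agtr2 cells, at 394, 309 and 292 CPM in contractile cells and at 75.0, 69.9 and 66.6 CPM in matrix fibroblast-like cells. Contractile cells of each lung lay above every other class, the Agtr2 cells came next and matrix cells after them, without overlap. The mean of the Agtr2 cells joins clusters with unlike Pdgfra, given below, and the larger of them lay near the level of matrix cells. Pericyte-like and smooth muscle-like cells overlapped at the bottom, near the levels outside the mesenchyme. Pdgfra was lower in pericyte-like than in contractile cells by a log2 difference of −4.53 ± 0.232, adjusted p = 1.3e-13, and lower in smooth muscle-like than in contractile cells by −4.42 ± 0.232, adjusted p = 4.1e-13 (limma, Benjamini-Hochberg over 4870 genes; SE). Contractile cells exceeded matrix cells by 2.07 ± 0.232, adjusted p = 2.7e-07. As a class mean the Agtr2 cells lay between, above matrix cells (1.07 ± 0.232, adjusted p = 0.0019) and below contractile cells (−1.01 ± 0.232, adjusted p = 0.0026). Pericyte-like against smooth muscle-like cells gave −0.11 ± 0.232, adjusted p = 0.80.

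Contractile and Agtr2 cells exceeded matrix cells for Pdgfrb as for Pdgfra. Where Pdgfra was low, in pericyte-like cells, Pdgfrb was highest. It stood at 419, 568 and 545 CPM in pericyte-like cells of lungs 1, 2 and 3, at 132, 311 and 117 CPM in smooth muscle-like cells, at 82.9, 50.6 and 80.6 CPM in Agtr2 cells, at 33.0, 58.1 and 51.9 CPM in contractile cells and at 12.8, 13.8 and 11.4 CPM in matrix cells. Pericyte-like cells were highest in every lung and matrix cells lowest, while Agtr2 cells and contractile cells overlapped. The smooth muscle-like cells of lung 2 stood well above those of the other lungs, on 27 to 29 cells per lung. Pericyte-like cells exceeded smooth muscle-like cells by 1.52 ± 0.247, adjusted p = 5.8e-05, contractile cells by 3.19 ± 0.247, adjusted p = 2.8e-10 and matrix cells by 4.51 ± 0.247, adjusted p = 5.6e-13 (limma, Benjamini-Hochberg). Contractile cells in turn exceeded matrix cells by 1.32 ± 0.247, adjusted p = 3.0e-04. Smooth muscle-like against Agtr2 cells gave 1.17 ± 0.247, adjusted p = 0.0012, but without lung 2 the log2 difference was 0.55 and the adjusted p 0.11. The Agtr2 cells against contractile cells gave 0.50 ± 0.247, adjusted p = 0.18. This difference was called by edgeR (0.70, adjusted p = 0.041) and DESeq2 (0.75, adjusted p = 0.041) on recovered UMIs, and by limma without lung 2 (0.83, adjusted p = 0.023) and with the cluster of Agtr2 cells and smooth muscle-like cells left undivided (1.15, adjusted p = 8.0e-07).

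Pdgfrl peaked in another class, the smooth muscle-like cells. It stood at 19.1, 12.2 and 13.7 CPM in pericyte-like cells of lungs 1, 2 and 3, 145, 132 and 165 CPM in smooth muscle-like cells, 52.6, 38.7 and 57.5 CPM in Agtr2 cells, 51.8, 66.4 and 70.0 CPM in contractile cells and 9.30, 8.60 and 9.56 CPM in matrix cells. Smooth muscle-like cells were highest in each lung and matrix cells lowest. Pdgfrl was lower in pericyte-like than in smooth muscle-like cells (−2.66 ± 0.207, adjusted p = 5.2e-10), and higher in smooth muscle-like than in contractile (1.12 ± 0.207, adjusted p = 2.3e-04) and matrix cells (3.03 ± 0.207, adjusted p = 2.9e-11; limma, Benjamini-Hochberg). Contractile cells exceeded matrix cells by 1.92 ± 0.207, adjusted p = 1.5e-07. Pericyte-like against matrix cells (0.38 ± 0.207, adjusted p = 0.26) and Agtr2 cells against contractile cells (−0.29 ± 0.207, adjusted p = 0.38) did not pass the test.

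The mesenchyme held ligand transcripts as well, chiefly Pdgfa, with its highest average levels in smooth muscle-like and then pericyte-like cells. Pdgfa stood at 56.1, 73.7 and 115 CPM in pericyte-like cells of lungs 1, 2 and 3, 245, 206 and 263 CPM in smooth muscle-like cells, 66.9, 36.5 and 33.0 CPM in Agtr2 cells, 26.3, 18.8 and 23.7 CPM in contractile cells and 20.2, 20.8 and 18.7 CPM in matrix cells. The smooth muscle-like cells of every lung stood above all other mesenchymal values, at the level of alveolar type 1-like cells, and contractile and matrix cells overlapped at the bottom. Pdgfa was lower in pericyte-like than in smooth muscle-like cells (−1.48 ± 0.233, adjusted p = 4.1e-05) and higher in pericyte-like than in matrix cells (1.57 ± 0.233, adjusted p = 1.3e-05; limma, Benjamini-Hochberg). Smooth muscle-like cells exceeded matrix cells by 3.05 ± 0.233, adjusted p = 2.5e-10, and contractile against matrix cells gave 0.13 ± 0.233, adjusted p = 0.83. Smooth muscle-like cells were 4.42% of mesenchymal cells and held 29.7 ± 2.74% of mesenchymal Pdgfa UMIs. They had the least Pdgfra together with pericyte-like cells, so that the mesenchymal classes with most Pdgfa had least of its receptor. Of the 85 smooth muscle-like cells 5 held a UMI of the heart muscle genes Myl7 or Nppa, and without them Pdgfa averaged 235 ± 38.7 CPM and Pdgfrb 196 ± 124 CPM (SD, n = 3). Epithelial markers, from the compartment with most Pdgfa, summed to 77.3 to 196 CPM in smooth muscle-like cells of the lungs and to 7.19 CPM in those of the sort.

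Pdgfb, Pdgfc and Pdgfd did not pass the filter of 5 CPM in the mesenchyme. Pdgfc was the one with a mesenchymal peak, at 5.72, 10.7 and 16.7 CPM in contractile cells of lungs 1, 2 and 3, and these held 81.6 ± 6.28% of mesenchymal Pdgfc UMIs. The highest mesenchymal level of Pdgfb was 0, 8.91 and 9.01 CPM in smooth muscle-like cells, with 3 UMIs in all. Pdgfd reached at most 3.48 CPM on average in a mesenchymal class.

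Over the 10 pairs of mesenchymal classes 35 of the 40 values of the 4 members tested were called, where 16.3 to 25.8% of 4870 genes were called per pair. For pericyte-like cells 3 of 4 members were called against matrix cells (17.9% of genes), 4 against contractile cells (22.4%), 4 against Agtr2 cells (25.8%) and 3 against smooth muscle-like cells (19.1%). For smooth muscle-like cells 4 were called against matrix cells (19.0%), contractile cells (21.0%) and Agtr2 cells (21.4%). For Agtr2 cells 4 were called against matrix cells (16.3%) and 2 against contractile cells (20.1%), and for contractile cells 3 against matrix cells (16.6%). Every call lost under an alternative involved Agtr2 cells, which had 35 to 43 cells per lung. The Pdgfra difference of Agtr2 cells and matrix cells had an adjusted p of 0.063 without lung 1, 0.14 with a pseudocount of 1 CPM in place of 10, and 0.11 with the cluster of Agtr2 cells and smooth muscle-like cells left undivided. That of Agtr2 cells and contractile cells had an adjusted p of 0.17 with a pseudocount of 1 CPM. The Pdgfa differences of Agtr2 cells against pericyte-like, contractile and matrix cells each lost the call with 1 lung left out, with adjusted p up to 0.45. How the 3 lungs relate is not given by the labels. With the lung as a block, the p-values measure only how differences between classes vary over these 3 lungs. The variance of each gene was drawn towards a trend over all tested genes, so small p-values rest on that trend as well.

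**Figure D3:**
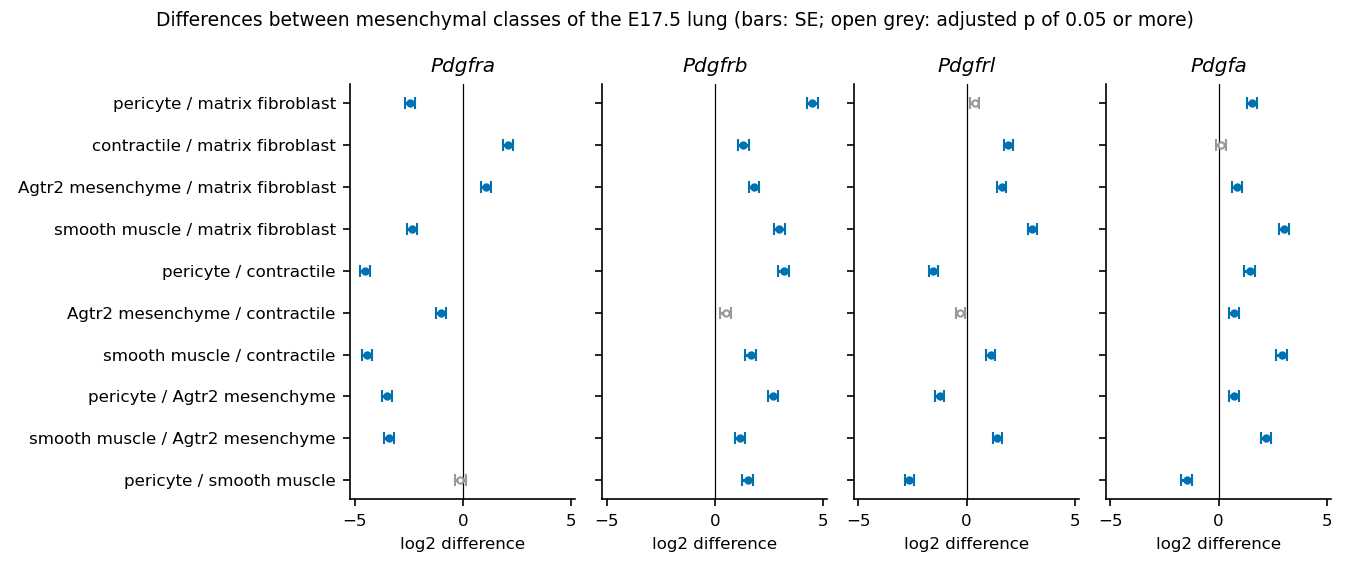
Log2 differences of Pdgfa, Pdgfra, Pdgfrb and Pdgfrl between pairs of mesenchymal classes of the E17.5 lung (limma on log2 of CPM plus 10, bars are SE, n = 3 lungs), with open grey points where the adjusted p was 0.05 or more. Values right of 0 are higher in the class named first. Pdgfra and Pdgfrb point in opposite directions wherever pericyte-like cells are set against fibroblasts, with −4.53 and 3.19 against contractile cells.

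The balance of the receptors can be read within each class. UMIs count molecules at one end of a transcript and are not divided by length, but capture can differ between genes, so the balance compares classes and not the receptors themselves. Of the UMIs of both receptors, Pdgfra made up 1.00 ± 0.618% in pericyte-like cells, 4.51 ± 0.597% in smooth muscle-like cells, 66.7 ± 5.66% in Agtr2 cells, 87.2 ± 4.33% in contractile cells and 84.5 ± 1.04% in matrix cells of the E17.5 lungs (SD, n = 3). Pericyte-like and smooth muscle-like cells were nearly pure for Pdgfrb, contractile and matrix cells mostly Pdgfra, and the Agtr2 cells, as a mean over unlike clusters, between. In the mesenchyme as a whole Pdgfra made up 68.3, 51.6 and 59.3% of these UMIs in lungs 1, 2 and 3. Contractile and matrix cells together held most Pdgfra, with 58.0 ± 2.99% and 34.6 ± 1.29% of mesenchymal UMIs. Pericyte-like cells, 10.4% of mesenchymal cells, held 63.2 ± 2.68% of mesenchymal Pdgfrb UMIs.

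**Figure D4:**
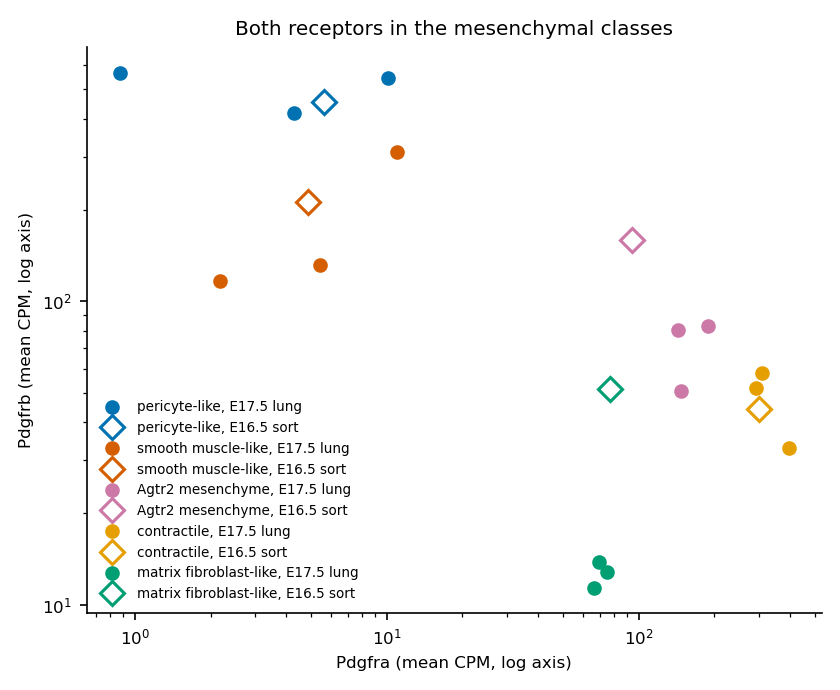
Pdgfra against Pdgfrb in each mesenchymal class of each library, in mean CPM on log axes, with filled points for the 3 lungs and open diamonds for the sort. Pericyte-like and smooth muscle-like cells lie at high Pdgfrb and low Pdgfra, contractile cells at high Pdgfra, and matrix cells of the lungs at 70.5 ± 4.26 CPM of Pdgfra and 12.7 ± 1.22 CPM of Pdgfrb. The sorted matrix cells lie at 51.4 CPM of Pdgfrb.

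Within classes the receptors also varied. Among matrix cells of the lungs Pdgfra averaged 161 ± 29.8 CPM in the 115 cells with division genes among their leading genes and 60.0 ± 3.52 CPM in the other 953, and Pdgfrb 29.7 ± 5.27 and 10.5 ± 2.39 CPM. Among the Agtr2 cells it averaged 261 ± 39.2 CPM in 55 cells led by Igfbp2 and Igfbp3 and 66.4 ± 29.3 CPM in 64 cells led by the cartilage genes Col2a1 and Col9a3, while Pdgfrb averaged 56.5 ± 38.9 and 79.8 ± 21.9 CPM. Outside the mesenchyme, small immune classes had Pdgfrb above the immune average, 19.6 ± 18.6 CPM in neutrophil-like and 13.4 ± 11.6 CPM in mast cell- or basophil-like cells, on 9 and 5 UMIs.

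Cell by cell, the receptors divided the mesenchyme into separate and mixed groups. As deposited, 33.2 ± 1.29% of E17.5 mesenchymal cells held UMIs of Pdgfra alone, 16.9 ± 2.80% of Pdgfrb alone, 8.38 ± 1.11% of both and 41.6 ± 2.98% of neither (SD, n = 3). In immune cells, taken as background, 1.49 ± 0.215% of cells held Pdgfra alone, 0.730 ± 0.345% Pdgfrb alone and 0 of 2179 both, which allows a share of up to 0.138%. Median depths over the lungs were 6796.5 to 8382.5 UMIs per cell in the mesenchyme and 6764 to 7865.5 in immune cells. Among pericyte-like cells 90.3 ± 7.04% held Pdgfrb alone, 3.09 ± 1.56% both and 0 of 199 Pdgfra alone, which allows a share of up to 1.51%. Among contractile cells 61.1 ± 7.30% held Pdgfra alone, 3.45 ± 0.969% Pdgfrb alone and 20.3 ± 5.87% both, beside 19.3% for both if the receptors fell on these cells independently. The observed share and the product of the single shares were 15.8 and 15.7% in lung 1, 26.9 and 24.5% in lung 2 and 18.2 and 17.7% in lung 3, and 31.7 and 29.1% in the sort. At 1000 UMIs per cell the observed share was below the product in lungs 1 and 3, on 2 and 0 double cells.

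Among matrix cells of the lungs 29.6 ± 2.06% held Pdgfra alone, 5.16 ± 1.02% Pdgfrb alone and 3.51 ± 0.390% both, and 61.8 ± 2.49% held neither. Among Agtr2 cells the shares were 32.4 ± 5.85%, 18.4 ± 2.21% and 19.7 ± 5.23%, and among smooth muscle-like cells 2.47 ± 4.28%, 60.5 ± 18.9% and 3.53 ± 0.147%. Contractile cells and the Agtr2 cells were the classes where both transcripts were most often found in 1 cell. Over the whole mesenchyme both were found in 8.38 ± 1.11% of cells, beside 10.5% if the receptors were independent across classes.

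**Figure D5:**
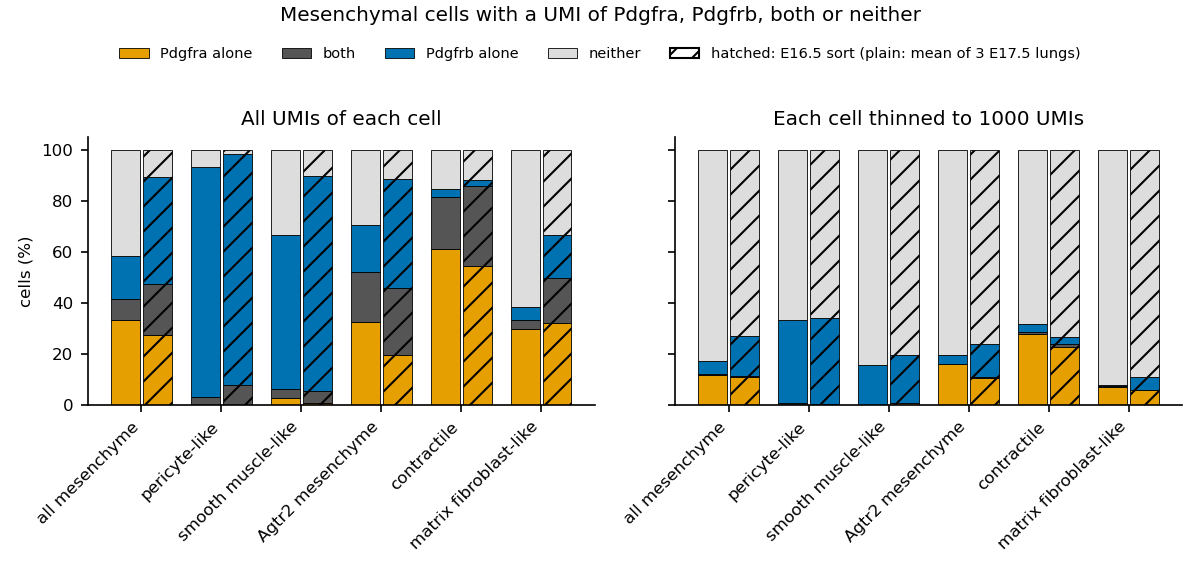
Shares of mesenchymal cells with UMIs of Pdgfra alone, Pdgfrb alone, both or neither, by class, in the E17.5 lungs (plain bars, mean of 3) and the E16.5 sort (hatched bars), as deposited and with each cell thinned to 1000 UMIs. Pericyte-like cells hold Pdgfrb alone in 90.3 ± 7.04% of cells as deposited and in 32.6 ± 0.621% after thinning, and contractile cells hold Pdgfra alone in 61.1 ± 7.30% and 27.7 ± 1.54%.

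The E16.5 sort, a single sample without a replicate check, was set beside the lungs without a test. Its intervals are 95% exact Poisson intervals for CPM and exact binomial intervals for shares and cover counting error only. In contractile cells Pdgfra was 332 ± 54.8 CPM in the E17.5 lungs and 300.4 CPM (291 to 309.5) in the sort. In matrix cells it was 70.5 ± 4.26 CPM in the lungs and 77.1 CPM (68.7 to 86.3) in the sort. In pericyte-like cells Pdgfrb was 511 ± 80.0 CPM in the lungs and 454 CPM (443 to 465) in the sort. The first and the last of these values of the sort lay within the range of the lungs, and the interval of Pdgfra in sorted matrix cells took in the highest lung (75.0 CPM). Pdgfra in pericyte-like cells was 5.11 ± 4.69 CPM in the lungs and 5.64 CPM (4.54 to 6.92) in the sort, where immune markers summed to 15.8 CPM.

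Pdgfrb of matrix fibroblast-like cells lay outside the range of the lungs in the sort. It was 12.7 ± 1.22 CPM in the lungs and 51.4 CPM (44.6 to 59.0) in the sort, and in both sorted matrix clusters it lay near that value (48.7 (40.3 to 58.5) and 56.1 (45.0 to 69.3) CPM). The share of Pdgfra in the UMIs of both receptors was 84.5 ± 1.04% in matrix cells of the lungs and 60.0% (55.6 to 64.3%) in those of the sort. In Agtr2 cells Pdgfra was 160.0 ± 25.1 CPM in the lungs and 94.3 CPM (81.4 to 109) in the sort, and Pdgfrb 71.4 ± 18.1 CPM in the lungs and 160.0 CPM (144 to 177) in the sort. The values of the sorted Agtr2 cells depended on the clustering: Pdgfra was 137 CPM and Pdgfrb 97.5 CPM with the 4 libraries clustered together, and 152 CPM and 81.4 CPM at Leiden resolution 1.5 in place of 1, where Pdgfrb fell within the range of the lungs. As clustered on their own at resolution 1, the sorted Agtr2 cells were mixed: Pdgfra and Pdgfrb averaged 169.6 (142 to 201) and 89.6 (70.1 to 113) CPM in 94 cells led by Cxcl14, 30.4 (19.4 to 45.2) and 265 (233 to 301) CPM in 83 cells led by Fabp7, and 62.1 (42.7 to 87.2) and 121 (94.4 to 153) CPM in 55 cells led by Cpe. Since the actin reporter selected the sorted cells, the matrix and Agtr2 classes of the 2 stages need not hold the same cells.

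In smooth muscle-like cells Pdgfa was 238 ± 29.5 CPM in the lungs and 207 CPM (186 to 229.6) in the sort, and Pdgfrb 187 ± 108 and 213 CPM (192 to 236). In pericyte-like cells Pdgfa was 81.7 ± 30.3 CPM in the lungs and 38.5 CPM (35.4 to 41.7) in the sort, where each lung lay above the interval of the sort. Pdgfrl in smooth muscle-like cells was 147 ± 16.45 CPM in the lungs and 77.6 CPM (64.5 to 92.5) in the sort, and in contractile cells 62.7 ± 9.66 and 38.1 CPM (35.0 to 41.3). In matrix cells its order was the opposite, with 9.15 ± 0.4996 CPM in the lungs and 23.9 CPM (19.3 to 29.3) in the sort. Pdgfc in contractile cells was 11.03 ± 5.49 CPM in the lungs and 23.5 CPM (20.9 to 26.2) in the sort. This value of the sort was 17.9 CPM with doublets kept and 17.0 CPM at Leiden resolution 1.5. Pdgfc was 53.7 (46.5 to 61.6) CPM in the 383 sorted contractile cells led by Actc1 and 2.62 to 19.2 CPM in the other contractile clusters of the sort. Actc1 was among the heart muscle markers used for naming.

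Contractile cells of the sort ranged widely in Pdgfra. It averaged 429 (407 to 452) CPM in the 292 cells led by Wif1, a secreted Wnt inhibitor, 369 (346 to 392) CPM in the 228 led by Smpx, 237 to 291 CPM in 3 further clusters, and 183 (169.7 to 196) CPM in the 383 cells led by Actc1. The Actc1 cells also had least Pdgfrb of these clusters, at 28.3 (23.2 to 34.1) CPM, and most Pdgfa, at 35.9 (30.0 to 42.6) CPM. The 4 pericyte-like clusters of the sort ranged from 407 to 489 CPM of Pdgfrb. Non-mesenchymal cells in the sort were few: 38 epithelial cells had 129.7 (112 to 149.9) CPM of Pdgfa, and 20 endothelial cells had 44.4 (30.6 to 62.3) CPM of Pdgfb and 19.8 (8.53 to 38.9) CPM of Pdgfd.

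Cell by cell, 33.2 ± 1.29% of E17.5 and 27.3% (25.7 to 29.0%) of sorted mesenchymal cells held Pdgfra alone, 16.9 ± 2.80% and 42.1% (40.3 to 43.9%) Pdgfrb alone, and 8.38 ± 1.11% and 19.9% (18.5 to 21.4%) both. The sorted mesenchyme was deeper, with a median of 11925.5 UMIs per cell. Thinned to 1000 UMIs per cell, with no cell left out, 11.5 ± 1.20% of E17.5 and 10.7% (9.58 to 11.8%) of sorted cells held Pdgfra alone. Pdgfrb alone was held by 5.34 ± 1.01% of E17.5 and 15.5% (14.2 to 16.9%) of sorted cells, and both by 0.349 ± 0.191% and 0.669% (0.409 to 1.03%). The thinned share of immune cells was 0.104% for Pdgfra and 0.0774% for Pdgfrb. Pericyte-like cells made up 10.4% of the mesenchyme of the lungs and 35.6% of that of the sort, a share the gate can set. Within pericyte-like cells the thinned share with Pdgfrb alone was 32.6 ± 0.621% in the lungs and 33.9% (31.1 to 36.8%) in the sort. Within matrix cells it was 0.502 ± 0.612% in the lungs and 5.35% (3.25 to 8.23%) in the sort.

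The wider pathway was read from 4 lists. Of 9 genes that cut, bind or hold PDGF ligands 7 were tested, and 5 were higher and 2 lower in the mesenchyme than in the mean of the other compartments (median log2 difference 1.56, against 0.05 over all genes). All 7 were thus called, where 75.0% of all genes were. The endothelium also had 5 higher and 2 lower (median 1.8, against 0.12 over all genes), where 77.0% of all genes were called. In the epithelium (74.0% of genes called) and in immune cells (84.9%) 2 were higher and 5 lower. Plat, the protease tPA that opens latent PDGF-C, was highest in pericyte-like cells at 185 ± 38.8 CPM, and stood at 35.1 ± 8.88 CPM in contractile cells and 19.3 ± 2.65 CPM in matrix cells of the lungs (log2 difference of pericyte-like against contractile cells 2.11 ± 0.323, adjusted p = 1.8e-05, limma, Benjamini-Hochberg). Pcsk5, a convertase of the kind that cuts PDGF-A, stood at 207 ± 25.4 CPM in contractile cells and 23.8 ± 3.37 CPM in matrix cells (2.68 ± 0.241, adjusted p = 6.6e-09), and at 214 ± 5.72 CPM in artery-like cells and 58.3 ± 6.43 CPM in the other endothelial cells (1.72 ± 0.121, adjusted p = 1.3e-20). Between artery-like and other endothelial cells 5 of 7 tested genes of this list were higher and the other 2 were not called, beside 17.8% of all genes called. The co-receptor Nrp1 was one of the 5 (0.96 ± 0.0716, adjusted p = 3.1e-19). Sparc, which binds PDGF-B, was higher in pericyte-like than in matrix cells (1.20 ± 0.0721, adjusted p = 2.9e-12), where 3 of 7 were higher and 1 lower, beside 17.9% of all genes called.

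Of 26 genes that relay the receptors' signal 24 were tested in the mesenchyme. In pericyte-like cells 8 were higher and 2 lower than in contractile cells, where 22.4% of all genes were called (median log2 difference 0.04, against −0.02 over all genes). Against matrix cells, where 17.9% were called, 7 were higher and 1 lower (0.27, against 0.04). Slc9a3r2, a scaffold that binds the tail of PDGF receptors, stood at 249.6 ± 29.2 CPM in pericyte-like and 36.0 ± 6.14 CPM in contractile cells (2.50 ± 0.190, adjusted p = 2.0e-10, limma, Benjamini-Hochberg), and the adaptor Nck2 differed by 1.40 ± 0.283, adjusted p = 5.7e-04. The kinase gene Src was higher in pericyte-like than in matrix cells (1.66 ± 0.238, adjusted p = 7.5e-06). Between contractile and matrix cells, which differ in Pdgfra, 1 of 24 was called, beside 16.6% of all genes. It was Src, which was higher (0.78 ± 0.238, adjusted p = 0.022). An unadjusted p under 0.05 was found for 3 of the 24, edgeR on recovered UMIs called 8 and DESeq2 3. Of 8 genes that dampen the receptors 7 were tested. In limma 0 were called between contractile and matrix cells, with 0 at an unadjusted p under 0.05, while edgeR and DESeq2 on recovered UMIs called 1 each. Between pericyte-like and matrix cells the ubiquitin ligase gene Cbl was higher and its relative Cblb lower (−1.02 ± 0.270, adjusted p = 0.0078).

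Of 7 relatives of the PDGF receptors and their ligands 3 were tested between compartments, and all 3 were called in each, where 74.0 to 84.9% of all genes were. Kit and its ligand gene Kitl were higher in the endothelium than in the mean of the other compartments (2.88 ± 0.0748, adjusted p = 9.4e-21 and 2.28 ± 0.0698, adjusted p = 2.7e-19; limma, Benjamini-Hochberg). Kitl was higher in the mesenchyme too (0.61 ± 0.0698, adjusted p = 2.6e-08). Csf1r, the macrophage growth factor receptor, was lower in the mesenchyme (−1.37 ± 0.0795, adjusted p = 9.6e-14), with 257 ± 28.2 CPM in macrophage-like cells. Of the 4 relatives tested within the mesenchyme Il34, a ligand of that receptor, was higher in pericyte-like than in matrix cells (1.60 ± 0.257, adjusted p = 3.9e-05), and Kitl was lower in contractile than in matrix cells (−1.58 ± 0.291, adjusted p = 2.5e-04), at 9.67 ± 0.348 and 48.9 ± 3.59 CPM.

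Genes with the most similar levels over 12 classes of the E17.5 lung (3-lung means, 4600 genes compared) are given as a description, since the classes share libraries. For Pdgfra they were Prr16 (Pearson r = 0.99), Col9a2, Cacna1g, Has2 and Fgf7. For Pdgfrb they were Postn (r = 0.99), Adamts4, Pla2r1, Abhd11os and Kcnk3, and for Pdgfrl Tro (r = 0.94), Pde1a, Mamdc2, Adcy5 and Prss35. Among the ligands, Pdgfa was nearest to Fads3 (r = 0.93), Ccdc112, Grpel2, Pfn2 and Msl3l2, Pdgfb to Tnfsf10 (r = 0.99), Arhgef15, 4833403J16Rik, Myzap and Clec1a, Pdgfc to Cachd1 (r = 0.91), Sema3c, Herpud1, Creld2 and Slc25a16, and Pdgfd to Ssu2 (r = 0.99), Pcp4l1, Lrrc3b, Crispld1 and 2700046A07Rik. Between members, Pdgfb and Pdgfd had r = 0.91, Pdgfrb and Pdgfrl 0.75, and Pdgfra and Pdgfrb 0.33 over the same 12 classes.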

How the data were processed

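Single-cell RNA was measured in 3 E17.5 lungs and 1 E16.5 sort, each its own library; that these were droplet libraries is inferred from the cell barcodes and Cell Ranger. The deposited values are a normalised signal: dividing each cell by its smallest step gave whole UMIs for 100% of values (tolerance 0.01), so the authors had scaled the counts of each cell to its library's median total. The submitters' processing notes name Cell Ranger 1.3.1 and Seurat 3.0.0 without their roles. The build and annotation are not given in the sources used here. Members, gene lists and class names were chosen with earlier results of these data known.

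Cells called doublets by Scrublet (36, 34 and 26 in lungs 1, 2 and 3, 30 in the sort) were left out. Of 20674 genes, 10250, among them all members and listed genes, were kept out of clustering, which used 2000 of the other 10424 (30 principal components, 15 neighbours, Leiden resolution 1). Of the genes listed, 28 had a symbol shared by another ID. The label of the Agtr2 cells, the division of their cluster from smooth muscle-like cells (resolution 0.5), the joining of myofibroblast-like clusters as contractile cells and the split of artery-like from other endothelial cells were settled after seeing the clusters. Per lung, classes of at least 20 cells were averaged in CPM, and log2 of CPM plus 10 was fitted with limma 3.58.1 (mean-variance trend) over genes of at least 5 CPM on average that took no part in clustering, with Benjamini-Hochberg adjustment and a threshold of 0.05. Fold changes on this scale understate the change of low genes. The lung was a block, since the classes of a lung come from 1 animal; the mean correlation of deviations within a lung was 0.202 to 0.377 for compartments, 0.0571 to 0.088 for mesenchymal, 0.0852 to 0.191 for epithelial, 0.0887 to 0.164 for endothelial and 0.143 to 0.288 for immune classes. All classes of a compartment shared 1 estimate of the spread, with 8 residual degrees of freedom for the mesenchyme, 6 for compartments, 4 for the epithelium and 2 each for endothelial and immune classes. To these limma added prior degrees of freedom, drawn from the spread of all tested genes, which are not given here. The fit was also run on simulated counts. Their added spread was set beforehand and not taken from these data, so that run does not bear on the calls made here. For the sort and for shares of cells no test was run. A count of 0 was given an upper limit of 3 cells, and intervals and limits cover counting error only. Named genes were the 7 members, called genes among the 3 with the largest change per list and comparison, and the 5 genes most similar to each member.

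As alternatives, edgeR 4.0.16 and DESeq2 1.42.0 on recovered UMI counts, another pseudocount, filter, scaling, doublet and mitochondrial setting, resolution and joint clustering were tried, and each lung was left out in turn. Between contractile and matrix cells limma called 806 genes, edgeR 1753 and DESeq2 1262; between type 1-like and type 2-like cells limma called 625 and edgeR 1393. Leaving the Agtr2 cluster undivided, leaving the cycling cluster out of the matrix class and the finer resolution of the sort were added after seeing the data. Thinning to 3000 UMIs left out 7, 5 and 21 mesenchymal cells of lungs 1, 2 and 3 and 0 of the sort. Python 3.11.15, scanpy 1.11.5, leidenalg 0.10.2, scikit-learn 1.9.0, scipy 1.17.1, R 4.3.3 and matplotlib 3.10.9 were used.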

Additional observations from a re-analysis of the deposited data

Results flagged for a closer look

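Pdgfrl, the receptor-like gene, was higher in pericyte-like than in matrix fibroblast-like cells of each E17.5 lung and lower in those of the E16.5 sort. In the lungs it stood at 15.02 ± 3.66 CPM in pericyte-like and 9.15 ± 0.4996 CPM in matrix cells (SD, n = 3), a mean log2 difference of 0.38 with a range of 0.25 to 0.59 over the lungs. In the sort it stood at 8.67 CPM (95% Poisson interval 7.32 to 10.2) in pericyte-like and 23.9 CPM (19.3 to 29.3) in matrix cells, a log2 difference of −0.86. All 3 lungs thus moved one way and the single sort the opposite way. The difference between the stages was not tested, the difference within the lungs was not called (adjusted p = 0.26, limma), and stage, gate and library cannot be told apart.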

How the results depend on the processing

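Calls of member values numbered 24 of 24 between compartments, 35 of 40 between mesenchymal, 2 of 6 between epithelial, 1 of 3 between endothelial and 0 of 1 between immune classes. Of all genes 74.0 to 84.9%, 16.3 to 25.8%, 12.9 to 33.1%, 17.8% and 36.5% were called in these comparisons, in the same order. Without the lung as a block, so without the pairing of classes by lung, the calls of member values numbered 24, 35, 2, 1 and 0. With 1 lung left out they ranged over 24 to 24, 32 to 34, 2 to 4, 1 to 1 and 0 to 0. The mesenchyme gave 20 of 24 with the Agtr2 cluster undivided, which leaves fewer pairs. The epithelium gave 4 of 6 with edgeR, and without lung 1, where 9 values passed the filter, 4. The endothelium gave 2 of 3, with Pdgfa added, for CPM of summed UMIs, edgeR, DESeq2, doublets kept, and cells over 10% mitochondrial UMIs left out, and immune classes 1 of 7 with no filter. The other member values under an alternative take in levels of the sort, which carry no call. Of these values 1154 stayed the same, and 13 levels of the sort moved out of their interval. Left out of this count were Pdgfra of contractile and matrix cells and Pdgfrb of pericyte-like cells. So were Pdgfa and Pdgfrb of smooth muscle-like cells, and moves of these levels are given below. Among the tested differences 20 lost the call, 11 gained it and 9 changed sign. The changed signs were 0.47 for Pdgfrl (Agtr2 against contractile cells) and −0.60 for Pdgfa (pericyte-like against Agtr2 cells) with the cluster undivided, 0.31 for Pdgfra (pericyte-like against smooth muscle-like cells) without lung 2 (leave-one-out range −0.53 to 0.31), 0.015, 0.060 and 0.039 for Pdgfa (airway-like against type 2-like cells) without lung 2, without lung 3 and at Leiden resolution 1.5 (leave-one-out range −0.20 to 0.060), 0.056 for Pdgfc in that pair without lung 3 (−0.32 to 0.056), −0.0064 for Pdgfb (artery-like against other endothelial cells) without lung 1 (−0.0064 to 0.32), and 0.017 for Pdgfa (macrophage-like against monocyte-like cells) at resolution 1.5. The cause was not tested.

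In the sort, Pdgfrb of pericyte-like cells was 420.0 CPM from summed UMIs. Pdgfra of contractile cells was 312 CPM with doublets kept, 279.9 CPM with the 4 libraries clustered together and 322 CPM at resolution 1.5. In the sorted Agtr2 cells Pdgfra was 137 and 152 CPM and Pdgfrb 97.5 and 81.4 CPM with joint clustering and at resolution 1.5, against 94.3 and 160.0 CPM. Joint clustering gave smooth muscle-like cells 145 CPM of Pdgfa and 247 CPM of Pdgfrb. Thinned to 3000 UMIs, 23.0% of E17.5 and 22.7% of E16.5 mesenchymal cells held Pdgfra alone, 12.02% and 31.3% Pdgfrb alone, and 2.92% and 3.95% both. At 1000 UMIs with 1 lung left out, the E17.5 shares were 10.96 to 12.1%, 4.83 to 5.84% and 0.252 to 0.443%.

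Counts of all called genes moved by over 1.5 times in some pairs: to 0.447 to 1.566 times with DESeq2 and 0.535 to 2.175 times with edgeR in the mesenchyme, to 0.545 to 0.665 times there with 1 lung left out and 1.51 to 1.553 times with the cluster undivided. The other cases were 2.229 times with edgeR and 0.482 to 0.639 times without lung 3 in the epithelium, 0.481 times with DESeq2, 0.61 times with no filter and 0.49 times without lung 3 in the endothelium, and 0.367 times with DESeq2 in immune cells. Median-of-ratios scaling gave 42.0% higher among called genes for the endothelium (62.3% with CPM), 48.9% (32.2%) for immune cells, 42.7% (55.5%) for the mesenchyme, 45.9% (62.6%) and 47.1% (67.5%) for airway-like against type 1-like and type 2-like cells, 45.8% (68.3%) for macrophage-like against monocyte-like cells and 48.9% (38.0%) for Agtr2 against contractile cells. Pdgfb, Pdgfc and Pdgfd were not tested between mesenchymal classes, where their mean lay under the filter. Every call lost between mesenchymal classes involved Agtr2 cells.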

Other observations

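Mesothelial cells, the lining of the lung surface, fell in no comparison because each lung held fewer than 20 of them (15, 1 and 16 in lungs 1, 2 and 3). The 32 mesothelial cells of the E17.5 lungs averaged 147, 234 and 174 CPM of Pdgfa in lungs 1, 2 and 3, and held 42 Pdgfa UMIs in all. They held 2 UMIs each of Pdgfra, Pdgfrb and Pdgfrl.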
